A study of Homo sapiens with 24 samples.

Results

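The RNA of the mitochondrial genome appeared in all 7 peak lists of an eCLIP study as 1080 peaks, out of 269336 peaks on all chromosomes. Every peak on the mitochondrial chromosome (chrM of the human build hg19) was kept, whatever its values. The choice of these members was made with earlier results of these data known. Each peak was sorted by its strand and by the place of its midpoint. The places were an rRNA window from position 650 to 3230, the rest of the transcribed part from 3231 to 16023, and the control region, which runs from 1 to 649 and lies above 16023.

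eCLIP crosslinks proteins to RNA with ultraviolet light, trims the RNA with RNase I, precipitates a protein with its antibody and sequences the RNA fragments that come with it. All libraries came from 293T, a human embryonic kidney cell line. There were 2 libraries with an RBFOX2 antibody at 40 U of RNase I (replicates 1 and 2), 2 with an SLBP antibody at 40 U (replicates 1 and 2), 2 with the SLBP antibody at 5 U (replicates 3 and 4) and 1 with an isotype control IgG at 40 U. Each had an input sample of its own, given the same RNase I amount, against which the authors expressed each peak as a log2 value over input. The labels do not say that replicates came from separate cultures, and their protocol allows replicates of 1 protein to be pooled once they carry barcodes. P-values here therefore reflect no more than how these libraries scatter, part or all of which could be technical. The sources used here do not say how the values of different lists were scaled, and no read depth is known for them. Nuclear chromosomes carry copies of mitochondrial DNA, and how reads that match both were assigned is not given either.

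RBFOX2 is a splicing regulator that binds GCAUG elements in nuclear pre-mRNA, and SLBP binds the stem-loop at the end of replication-dependent histone mRNAs. Mitochondrial DNA is transcribed from both strands into long precursors, from which tRNAs are cut out so that the rRNAs and mRNAs between them come free, an arrangement called tRNA punctuation. The RNA of the plus strand of the reference holds both rRNAs, most tRNAs and all but 1 of the mRNAs. The RNA of the minus strand holds the ND6 mRNA and several tRNAs, and much of it carries no gene and is degraded. Of the 37 mitochondrial genes in the RefSeq gene table, 2 were rRNAs, 22 tRNAs and 13 protein-coding genes.

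Mitochondrial peaks made up a small share of every list, and in 6 of 7 lists most of them lay below input. They numbered 226 and 195 in RBFOX2 replicates 1 and 2, 138 and 113 in SLBP replicates 1 and 2 at 40 U, 138 and 113 in SLBP replicates 3 and 4 at 5 U, and 157 in IgG. As a share of the list these were 0.302% and 0.200% for RBFOX2, 0.599% and 0.616% for SLBP at 40 U, 0.813% and 1.12% for SLBP at 5 U, and 0.554% for IgG. The RBFOX2 lists held the most mitochondrial peaks and the lowest shares, and these lists were also the longest, with 74902 and 97594 peaks against 10122 to 28361 in the others. The exact binomial 95% interval of the lowest share ran from 0.173% to 0.230% and that of the highest from 0.921% to 1.34%; such intervals hold the error of counting alone.

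Joint limits defined an enriched peak, a deposited −log10 p of 5 or more and a deposited log2 value of 3 or more, that is 8-fold over input. Enriched mitochondrial peaks numbered 0 and 0 in the RBFOX2 lists, where 7.95% and 7.66% of all peaks passed. SLBP at 40 U had 0 and 1, against 1.23% and 1.27% of all peaks, and SLBP at 5 U had 0 and 0, against 1.7% and 2.33%. The IgG list had 2, against 0.18% of all its peaks. The only antibody peak among these 3 lay on the minus strand at positions 5829 to 5859 in SLBP replicate 2, with a log2 value of 3.26 and a −log10 p at the ceiling of 400. These counts stood below the share of the list in every RBFOX2 and SLBP list, where the 1 peak of SLBP replicate 2 was 0.885% of its mitochondrial peaks. In IgG alone they stood above it, as 2 peaks were 1.27% of its mitochondrial peaks. Both IgG peaks lay on the plus strand and touched each other, from 1618 to 1628 (log2 3.24) and from 1629 to 1651 (log2 3.22), between the rRNA genes.

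With a log2 limit of 1 in place of 3 and the same p limit, 34 mitochondrial peaks passed, and lists differed in how these stood to the background. RBFOX2 had 3 and 0, against 9.98% and 9.86% of all peaks. SLBP at 40 U had 4 and 10, or 2.90% and 8.85% of the mitochondrial peaks, against 1.69% of all peaks in either list. SLBP at 5 U had 4 and 2, or 2.90% and 1.77%, against 1.96% and 2.62%, and IgG had 11, or 7.01%, against 0.592%. Touching pieces counted separately here. The 10 peaks of SLBP replicate 2 formed 6 sites, and 6 of the peaks lay in the rRNA window. The 11 IgG peaks also formed 6 sites, with 8 peaks in the rRNA window.

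Below input, with a log2 value under 0, lay 86.3% and 97.9% of the mitochondrial peaks of RBFOX2 replicates 1 and 2, beside 32.6% and 31% of all peaks of those lists. In SLBP at 40 U it was 46.4% and 60.2% beside 7.02% and 9.45%. In SLBP at 5 U it was 77.5% and 81.4% beside 23.4% and 17%, and in IgG 66.2% beside 10.7%. In each of the 7 libraries the mitochondrial share thus stood above that of the whole list.

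The median log2 value of the mitochondrial peaks was −1.06 and −1.43 in RBFOX2 replicates 1 and 2, 0.06 and −0.31 in SLBP at 40 U, −0.37 and −0.45 in SLBP at 5 U, and −0.24 in IgG. On all other chromosomes the medians of the same lists were 0.73 and 0.86, 1.57 and 1.46, 0.66 and 1.22, and 1.31. The difference within a list was negative in 7 of 7 libraries, with a mean of −1.66 ± 0.38 (SD, n = 7). Libraries of different antibodies are not replicates of each other, so this SD and every test over the 7 libraries speak only of these libraries. An exact two-sided sign-flip permutation test over libraries gave p = 0.0156, the smallest that 7 libraries can give, and an adjusted p of 0.0260 (Benjamini-Hochberg over 5 within-library differences). That difference depended on which peaks stood for the other chromosomes. Over stretches of RNA covered by a peak in all 7 lists, 51 on chrM and 1258 elsewhere, the mean difference was −0.17 ± 0.22 (SD, n = 7), negative in 6 of 7 libraries (exact sign-flip permutation p = 0.109, adjusted 0.182). This alternative was chosen after seeing the data.

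The 2 strands were not represented alike. Only 37 of the 1080 mitochondrial peaks lay on the minus strand: 7 in each RBFOX2 list, 5 in each SLBP list at 40 U, 4 and 5 in SLBP at 5 U, and 4 in IgG. That was 2.55% to 4.42% of the mitochondrial peaks of a list, whereas 48.8% to 49.9% of the peaks on other chromosomes lay on the minus strand. No minus-strand peak lay in the rRNA window (0 of 37) or in the control region, and all 37 lay in 3 places, described below.

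**Figure D1:**
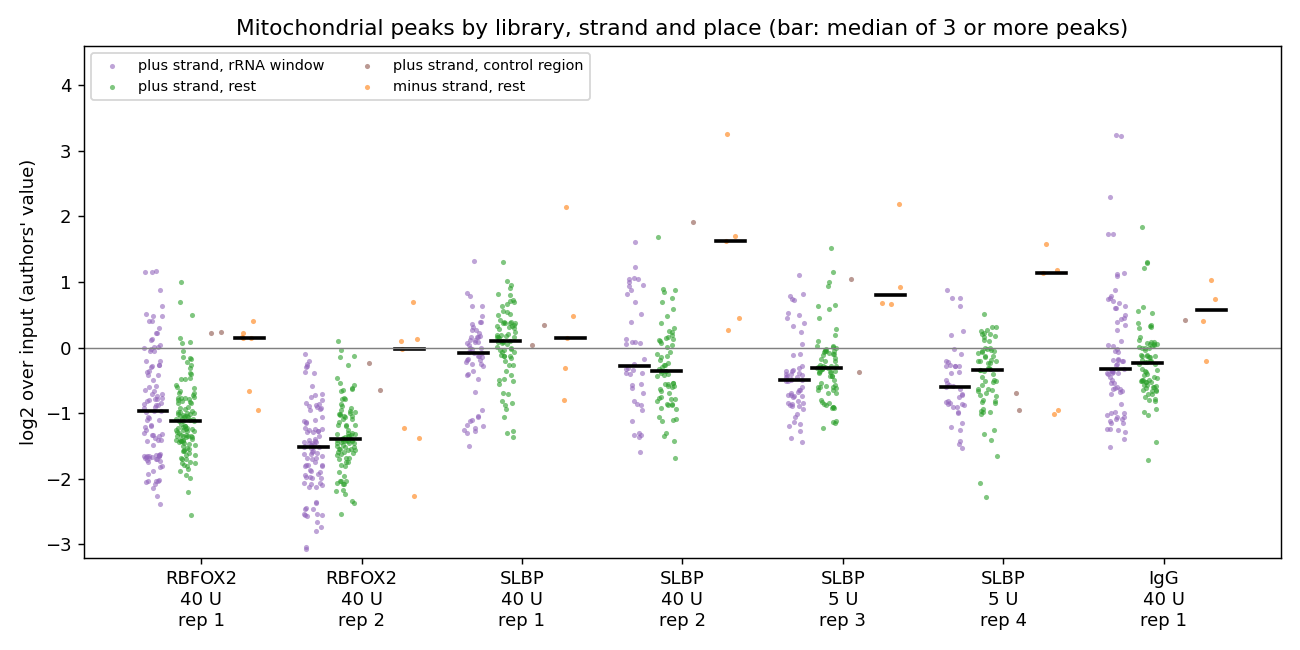
Log2 over input (vertical axis, the authors' values) of every mitochondrial peak in the 7 libraries (horizontal axis), coloured by strand and place; each point is 1 peak, and a black bar is the median of 3 or more peaks. The RBFOX2 medians on the plus strand lie near −1 to −1.5, and the few minus-strand peaks have the highest drawn median in all 7 libraries.

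Peaks of the minus strand had higher values over input than those of the plus strand. Their median log2 value was 0.15 and −0.02 in RBFOX2 replicates 1 and 2, 0.15 and 1.63 in SLBP at 40 U, 0.80 and 1.14 in SLBP at 5 U, and 0.57 in IgG. The plus-strand medians were −1.08 and −1.44, 0.06 and −0.33, −0.38 and −0.47, and −0.26. The difference, minus over plus, was 1.23 and 1.42 in RBFOX2, 0.09 and 1.96 in SLBP at 40 U, 1.18 and 1.61 in SLBP at 5 U, and 0.83 in IgG. It was positive in 7 of 7 libraries, with a mean of 1.19 ± 0.60 (SD, n = 7; exact sign-flip permutation p = 0.0156, adjusted 0.0260). The smallest difference, in SLBP replicate 1, was far from its replicate 2, and each library's minus-strand median rests on 4 to 7 peaks.

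The rRNA window held 465 of the peaks, all on the plus strand. RNR1 and RNR2 encode the small and large rRNA of the mitochondrial ribosome. Peaks in the window numbered 103 and 93 in RBFOX2 replicates 1 and 2, 56 and 40 in SLBP at 40 U, 57 and 42 in SLBP at 5 U, and 74 in IgG, which was 35.4% to 47.7% of the mitochondrial peaks of a list. They covered 27.8% to 37.3% of the window's nucleotides, and plus-strand peaks of the rest covered 18.0% to 30.8%.

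Peaks in the rRNA window were short pieces that lay end to end. Their median width was 6 nt in both RBFOX2 lists, 11.5 and 14.5 nt in SLBP at 40 U, 12 and 14 nt in SLBP at 5 U, and 7.5 nt in IgG. On the plus strand of the rest it was 33 and 40 nt, 37 and 34 nt, 40 and 38 nt, and 36 nt. Once touching peaks were merged into sites, the window held 25 and 19 sites in RBFOX2, 17 and 17 in SLBP at 40 U, 20 and 21 in SLBP at 5 U, and 24 in IgG. A site of the window was thus cut into 4.12 and 4.89 pieces on average in RBFOX2, 3.29 and 2.35 in SLBP at 40 U, 2.85 and 2.00 in SLBP at 5 U and 3.08 in IgG. Sites of the rest were cut into 1.10 to 1.44 pieces, and sites on other chromosomes into 1.02 to 1.09. Merged sites of the window were 29 to 43 nt wide at the median, close to the 37 to 47 nt of the rest. A count of mitochondrial peaks in these lists is therefore weighted towards the rRNA window. Pieces per site of the window were highest in the RBFOX2 lists.

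**Figure D2:**
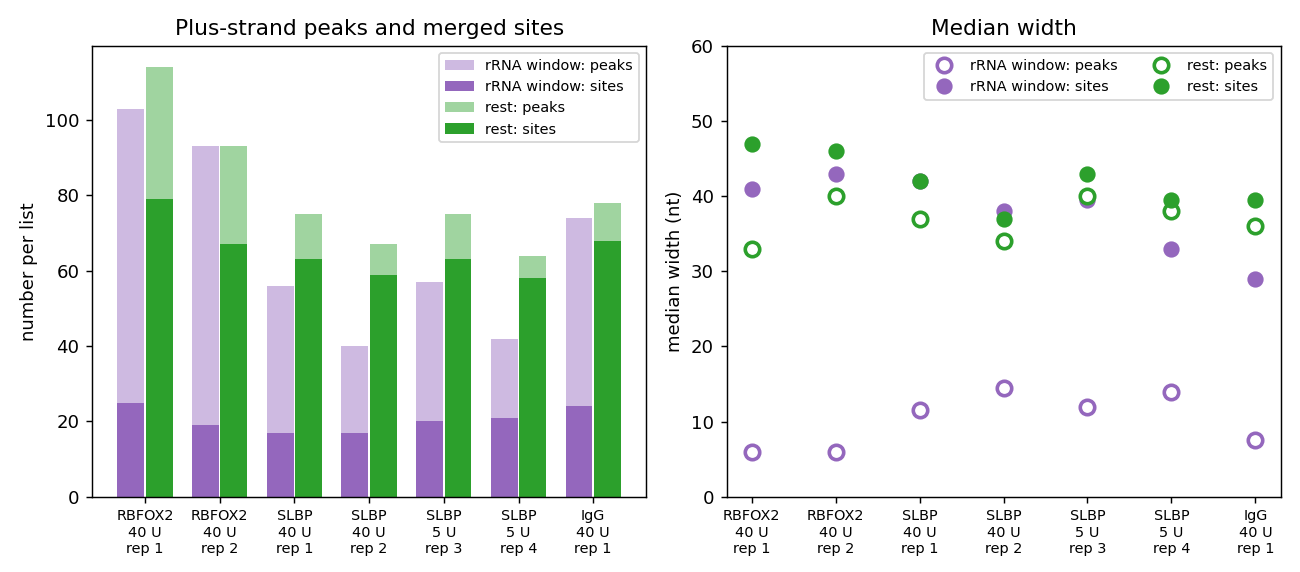
Left, number of plus-strand peaks (pale) and of sites after touching peaks were merged (dark) in the rRNA window and in the rest, per library. Right, median width in nt of peaks (open circles) and of sites (filled circles); rRNA-window peaks have medians of 6 to 14.5 nt, while their sites are 29 to 43 nt wide.

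In their values over input the rRNA window and the rest differed by less than the spread between libraries. The plus-strand median of the window minus that of the rest was 0.16 and −0.12 in RBFOX2 replicates 1 and 2, −0.19 and 0.08 in SLBP at 40 U, −0.19 and −0.26 in SLBP at 5 U, and −0.10 in IgG. The mean was −0.09 ± 0.15 (SD, n = 7), negative in 5 of 7 libraries, and did not pass (exact sign-flip permutation p = 0.172, adjusted 0.203). With touching peaks merged it was −0.17 and passed (adjusted exact permutation p = 0.0469), and with peaks of at least 20 nt alone its sign turned, at 0.041 (adjusted exact permutation p = 1).

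Within the window, the 2 rRNAs stood apart from each other in most lists. Peaks were assigned to genes through approximate windows, rounded to 100 nt and not checked against an hg19 annotation. RNR1 had 168 peaks and medians of −0.42 and −1.14 in RBFOX2 replicates 1 and 2, −0.01 and 0.13 in SLBP at 40 U, −0.72 and −0.63 in SLBP at 5 U, and 0.02 in IgG. RNR2 had 267 peaks and medians of −1.63 and −1.90, −0.15 and −0.75, −0.49 and −0.60, and −0.58 in the same order. RNR2 lay below input in 7 of 7 lists and below RNR1 in both RBFOX2 lists, both SLBP lists at 40 U and IgG, but not in the SLBP lists at 5 U. This split was not tested.

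Common stretches of the rRNAs include the highest and the lowest of the plus strand. The stretch of RNR1 from 922 to 988 was the highest plus-strand stretch by its median over the 7 lists (0.43). It stood at −0.45 and −0.94 in RBFOX2, 0.43 and 0.61 in SLBP at 40 U, 0.51 and 0.46 in SLBP at 5 U, and 0.27 in IgG. The 4 SLBP values lay close together and above both RBFOX2 values. The highest plus-strand peak of SLBP replicate 1, at 921 to 925 (log2 1.32), and that of replicate 4, at 920 to 938 (log2 0.89), began just before it, both with a −log10 p of 400. The lowest stretch lay in RNR2 from 1710 to 1750, at −1.90 and −1.92 in RBFOX2, −1.19 and −1.36 in SLBP at 40 U, −0.76 and −1.45 in SLBP at 5 U, and −1.06 in IgG. A second low stretch of RNR2, from 2247 to 2301, stood at −1.70 and −1.50, −1.15 and −1.32, −0.51 and −0.57, and −1.10. Both stretches lay below input in all 7 lists.

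**Figure D3:**
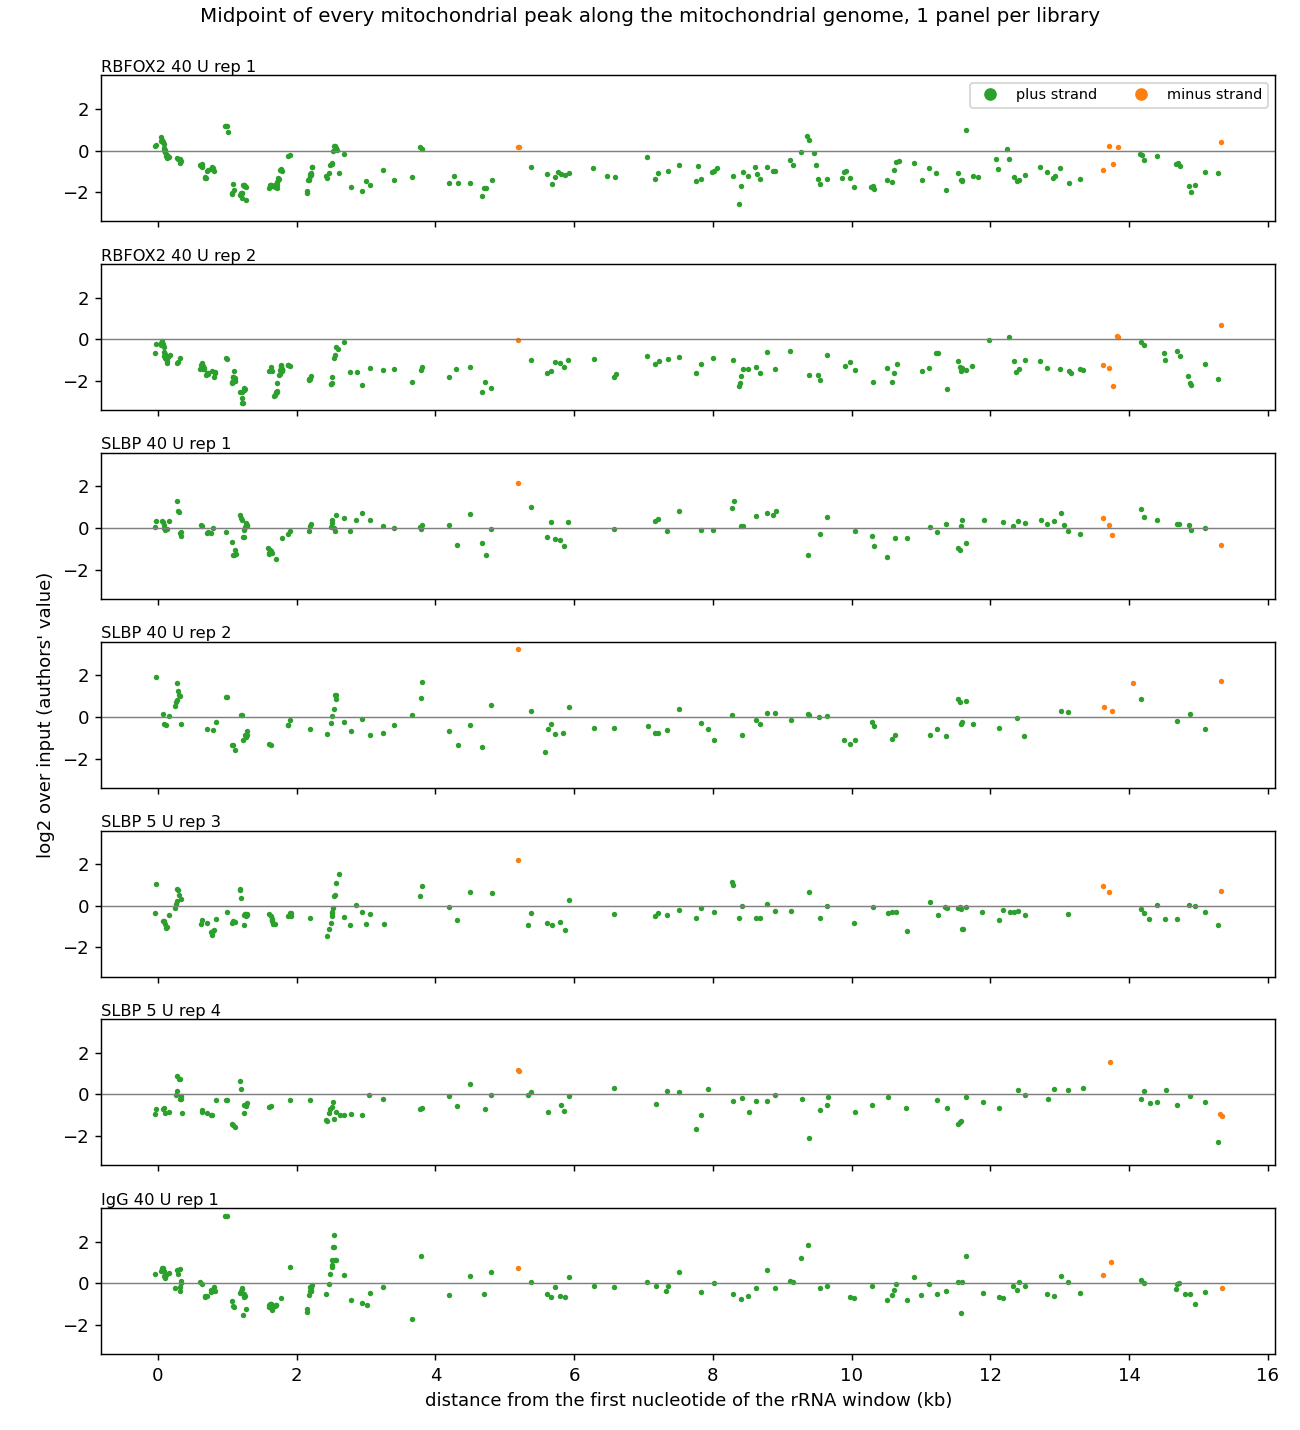
Log2 over input (vertical axis) of each mitochondrial peak, drawn at its midpoint as a distance in kb from the first nucleotide of the rRNA window (horizontal axis), 1 panel per library; green is the plus strand and orange the minus strand. Plus-strand peaks spread over most of the transcribed part, with none in the ND6 window, and minus-strand peaks stand at 3 places.

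The mRNAs of the plus strand, which encode subunits of the respiratory chain and of ATP synthase, carried 500 peaks in 10 windows. COX1, the catalytic core of cytochrome c oxidase, had medians of −1.12 and −1.24 in RBFOX2 replicates 1 and 2, −0.23 and −0.55 in SLBP at 40 U, −0.82 and −0.09 in SLBP at 5 U, and −0.20 in IgG. CYTB, the mitochondrial subunit of complex III, had −0.66 and −0.88, 0.19 and −0.03, −0.31 and −0.29, and −0.26. ND5, the longest subunit of complex I encoded here, had −1.20 and −1.41, 0.26 and −0.21, −0.30 and −0.04, and −0.38. COX1 and the joint window of ND4L and ND4 were below input at the median in 7 of 7 lists, and ND1, ND2, ATP8 with ATP6, ND5 and CYTB in 6 of 7. COX2, COX3 and ND3 were below input in 5 of 7. In both RBFOX2 lists all of these medians were negative, from −0.66 to −1.91.

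The mRNAs held the third lowest and the third highest plus-strand stretch. A stretch of ND1 from 3576 to 3599 stood at −1.94 and −2.19 in RBFOX2, 0.73 and −0.10 in SLBP at 40 U, −0.28 and −1.004 in SLBP at 5 U, and −0.93 in IgG. The ND2 stretch from 5130 to 5169 stood at −1.56 and −1.33 in RBFOX2, 0.66 and −0.40 in SLBP at 40 U, 0.64 and 0.52 in SLBP at 5 U, and 0.34 in IgG. In both stretches the RBFOX2 values lay below those of the other 5 libraries. The highest plus-strand peak of RBFOX2 replicate 2 anywhere on chrM was in ND5, at 12879 to 12955, with a log2 value of only 0.10.

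**Figure D4:**
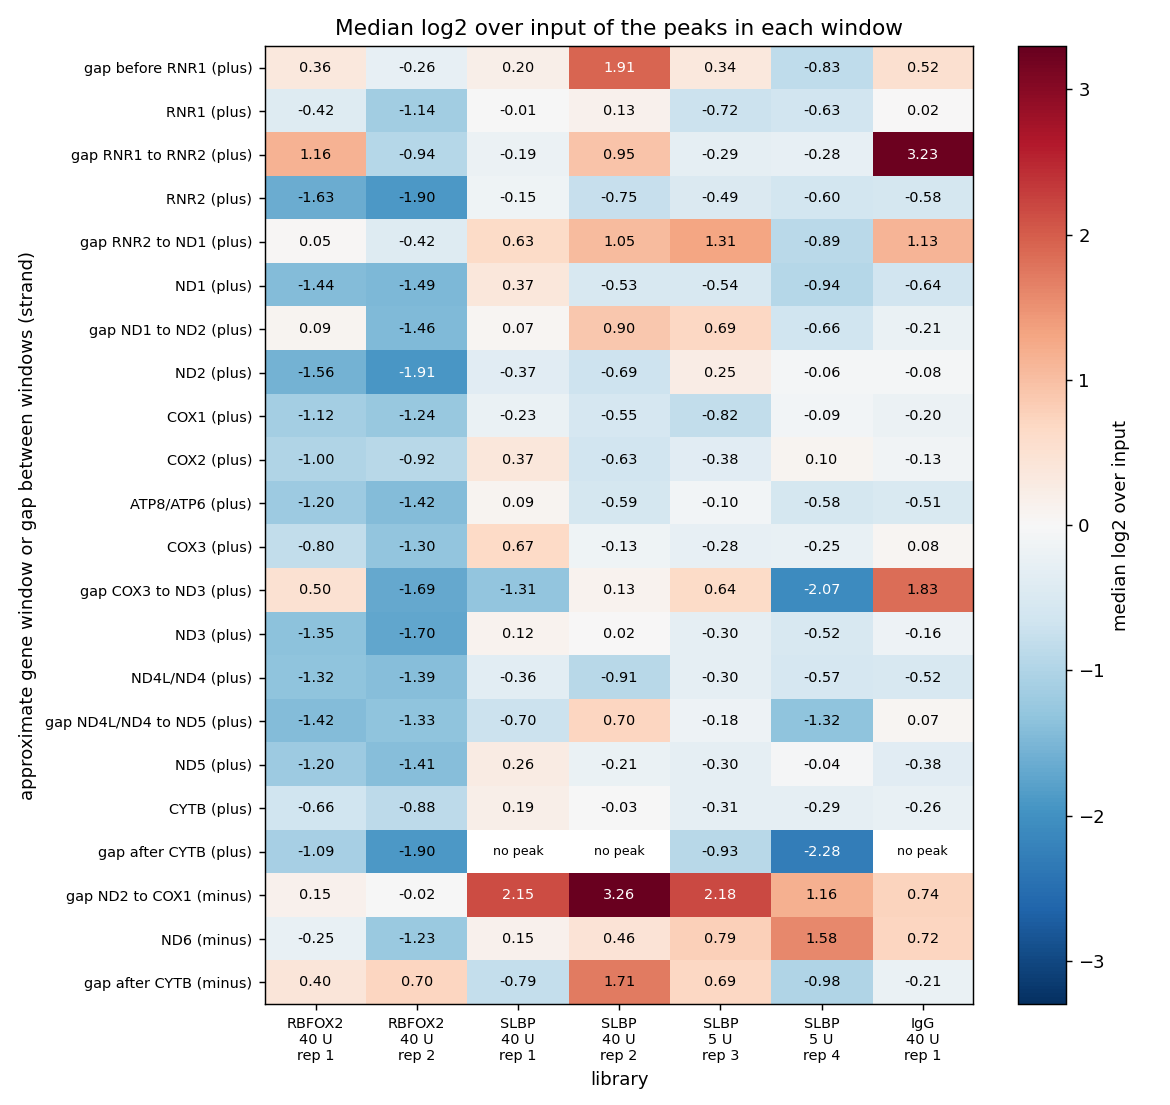
Median log2 over input (colour and printed value) of the peaks in each approximate gene window, or gap between windows, by strand (rows, in genome order, plus strand first) and library (columns). RBFOX2 medians are negative over all plus-strand mRNA windows, while the gap rows, where tRNA genes lie, vary between libraries of the same antibody, as in the gap from COX3 to ND3 (0.50 and −1.69 in RBFOX2).

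The gaps between the gene windows hold tRNA genes by the order of the RefSeq table, and values there differed more between replicates than in genes. This grouping was chosen after the values were seen and was not tested. The gap between RNR1 and RNR2, where the gene for valine tRNA (TRNV) lies, gave a stretch from 1620 to 1651 with 1.16 and −0.94 in RBFOX2 replicates 1 and 2, −0.19 and 0.94 in SLBP at 40 U, −0.29 and −0.28 in SLBP at 5 U, and 3.23 in IgG. The IgG value was the highest of the 7. The gap between COX3 and ND3, the place of the glycine tRNA gene (TRNG), gave a stretch from 10010 to 10044 with 0.53 and −1.69, −1.31 and 0.12, 0.64 and −2.07, and 1.83 in the same order. Here the replicates of each antibody and RNase I amount lay on opposite sides of input.

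The 12 peaks that fell in the control region by position all lay at its end next to the rRNA window and none above 16023, and the first mitochondrial peak began at 596. By gene order this is the place of the phenylalanine tRNA gene (TRNF), so the control region as a non-coding region had no peak in these lists. The stretch from 617 to 630 stood at 0.24 and −0.23 in RBFOX2, 0.35 and 1.91 in SLBP at 40 U, 1.04 and −0.70 in SLBP at 5 U, and 0.43 in IgG, so that at both RNase I amounts the SLBP replicates lay far apart. With 1 or 2 peaks per list, the control region could not be compared with the rest by median.

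Over the 51 stretches covered in all 7 lists, 7 lay in gaps and 44 in gene windows. The median absolute difference between RBFOX2 replicates was 0.73 in the gaps and 0.26 in the gene windows. Between SLBP replicates it was 1.13 and 0.49 at 40 U and 1.28 and 0.29 at 5 U. Plus-strand gap peaks as a whole had a higher median than gene-window peaks in 5 of the 7 lists, by 1.27 and 0.41 in RBFOX2, −0.01 and 1.27 in SLBP at 40 U, 0.32 and −0.59 in SLBP at 5 U, and 1.46 in IgG. Since the windows are rounded, gap peaks may include ends of rRNAs. A site that began near 12284 also counted as ND5 in RBFOX2 and SLBP at 5 U, but as gap in SLBP at 40 U and IgG. Its log2 value was 1.00 in RBFOX2 replicate 1 and 1.31 in IgG. The IgG gap median, 1.13, was that of a peak at 3198 to 3218, in the rRNA window and touching an RNR2 peak. In gaps alone the minus-strand median was below the plus-strand one in IgG (0.26 against 1.13) and about equal in RBFOX2 replicate 1 (0.15). In the other lists it was higher, as it was among gene-window peaks in every list.

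The minus-strand peaks lay at 3 places that were the same in every list. A site at about 5827 to 5859 lay in the gap between ND2 and COX1, where the reference carries a run of tRNA genes that ends with the tyrosine tRNA gene (TRNY) next to COX1. A group of sites, 20 peaks in all, lay in the ND6 window, mostly between 14254 and 14500. The last site, at about 15958 to 15993, lay after CYTB, in the gap that holds the threonine and proline tRNA genes (TRNT and TRNP), of which TRNP is read from the minus strand.

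The site between ND2 and COX1 was the strongest minus-strand site in the SLBP lists at 40 U and in SLBP replicate 3. It was 31 or 32 nt wide in every list, and its ends moved by no more than a few nucleotides. Its log2 value was 0.15 and −0.02 in RBFOX2 replicates 1 and 2, 2.15 and 3.26 in SLBP at 40 U, 2.18 and 1.16 in SLBP at 5 U, and 0.74 in IgG. The authors' −log10 p stood at the ceiling of 400 in all 4 SLBP lists, at 17.7 in IgG, and at 1.74 and 0 in RBFOX2. All 4 SLBP values lay above the IgG value, and both RBFOX2 values lay below it. Among the common stretches whose RBFOX2 and SLBP values at 40 U did not overlap, this one had the widest gap between the means, −2.64. RBFOX2 averaged 0.06 ± 0.12 (SD, n = 2) and SLBP 2.71 ± 0.79 (SD, n = 2). It was also a site at which the 5 U values (1.16 and 2.18) and the 40 U values (2.15 and 3.26) of SLBP overlapped.

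ND6 encodes a subunit of complex I and is the only mitochondrial mRNA read from the minus strand. Its window had 20 minus-strand peaks and no plus-strand peak (0) in the 7 lists. The minus-strand median was −0.25 and −1.23 in RBFOX2 replicates 1 and 2, 0.15 and 0.46 in SLBP at 40 U, 0.79 and 1.58 in SLBP at 5 U, and 0.72 in IgG. Both 5 U values lay above both 40 U values, and both RBFOX2 values lay below all others. These medians rested on 4 and 5 peaks in RBFOX2 and 2 in IgG. For SLBP they rested on 3 and 3 peaks at 40 U and on 2 and 1 at 5 U. No peak in the window reached a −log10 p of 5, and the order of the lists was not tested. RBFOX2 also lay below SLBP at 40 U, without overlap, at 81.4% of the 1309 common stretches on all chromosomes. Peaks covered 29.3% and 30.5% of the window in RBFOX2, 19.5% and 15.8% in SLBP at 40 U, 12.3% and 12.7% in SLBP at 5 U, and 17.7% in IgG. The nucleotides shared by all 7 lists came to a stretch of only 2 nt, 14372 to 14373, since peak ends differed between lists. The highest value in the window, 1.63 in SLBP replicate 2, came from a peak of 3 nt at 14697 to 14699 with a −log10 p of 0.47.

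The site after CYTB stood at 0.40 and 0.70 in RBFOX2 replicates 1 and 2, −0.79 and 1.71 in SLBP at 40 U, 0.69 and −0.99 in SLBP at 5 U, and −0.21 in IgG. SLBP replicates lay on opposite sides of input at both RNase I amounts. It was the highest minus-strand site in both RBFOX2 lists, where the site between ND2 and COX1 lay near input.

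The lists shared part of their nucleotides. Plus-strand peaks covered 6223 nt of chrM in at least 1 list, and 1963 nt (31.5%) in all 7. On the minus strand 264 nt were covered in at least 1 list and 49 in all 7. Of the plus-strand nucleotides covered in RBFOX2 replicate 1, 85.2% were also covered in replicate 2 and 73.2% in IgG. In SLBP replicates 1, 2, 3 and 4 the share was 62.7%, 60.3%, 63.9% and 51.7%. These shares followed how many plus-strand nucleotides the other list covered, from 4705 in RBFOX2 replicate 2 to 3057 in SLBP replicate 4. In the other direction, 91.0% of the plus-strand nucleotides of SLBP replicate 2 were covered in RBFOX2 replicate 1 and 82.7% in SLBP replicate 1. Of the nucleotides covered in RBFOX2 replicate 2, 89.4% were covered in replicate 1. Nucleotides covered in all 7 lists formed 48 stretches on the plus strand and 3 on the minus strand when gaps under 50 nt were bridged.

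Between antibodies at 40 U, RBFOX2 values lay below SLBP values nearly everywhere on chrM, and the same held across the other chromosomes. Both RBFOX2 values were below both SLBP values at 45 of the 51 common stretches, above at 0, and overlapped at 6. Of all 1309 common stretches of the lists, on all chromosomes, 81.4% showed RBFOX2 below SLBP without overlap. The mitochondrial count therefore stood near the background. The median difference, RBFOX2 minus SLBP, was −1.13 over the mitochondrial stretches and −1.52 over the 1258 others. Since the scaling between lists is unknown, a shift common to a whole list cannot be told apart from a difference at each site.

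**Figure D5:**
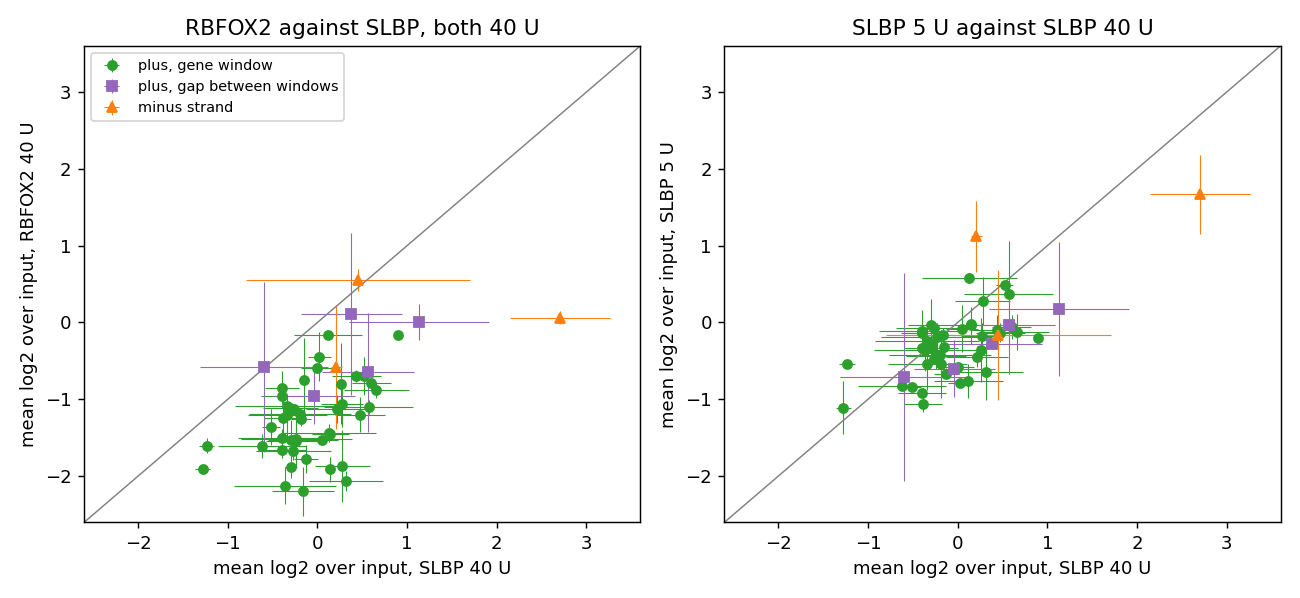
Mean log2 over input of the 51 mitochondrial stretches covered in all 7 lists: SLBP at 40 U on the horizontal axis against RBFOX2 at 40 U (left) or SLBP at 5 U (right) on the vertical axis; bars span the 2 replicates and the grey line marks equal values. At left 45 stretches lie below the line without overlap, with the minus-strand site between ND2 and COX1 farthest from it; at right 29 of 51 overlap.

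Per library, the median over the mitochondrial stretches stood −0.17 and 0.23 from that of the other stretches in RBFOX2 replicates 1 and 2, −0.20 and −0.37 in SLBP at 40 U, −0.01 and −0.36 in SLBP at 5 U, and −0.33 in IgG. Over all peaks, the median of mitochondrial peaks was lower in RBFOX2 than in SLBP at 40 U by −1.12, between means of −1.24 ± 0.26 and −0.13 ± 0.26 (SD, n = 2 each), with no overlap. The exact two-sided permutation test gave p = 0.333, the smallest that 2 libraries against 2 can give, so no comparison between groups could pass 0.05. Adjusted over the 10 such comparisons made here, the p was 0.556 wherever the values did not overlap and 1 elsewhere. The mitochondrial share of the list differed by −0.357 percentage points, from 0.251% ± 0.072 in RBFOX2 to 0.607% ± 0.012 in SLBP (SD, n = 2 each; exact permutation p = 0.333). The share of mitochondrial peaks on the minus strand was 3.10% and 3.59% in RBFOX2 and 3.62% and 4.42% in SLBP, a difference of −0.68 percentage points (exact permutation p = 0.333). It was −0.38 points with touching peaks merged, −0.24 with peaks of at least 20 nt and −0.28 without SLBP replicate 2, and in each case the groups overlapped or one held a single library. The strand gap in median log2, minus over plus, differed by 0.30 between RBFOX2 and SLBP, with overlapping values (exact permutation p = 1). The median width differed by −6.75 nt, from 17.5 and 21 nt in RBFOX2 to 23 and 29 nt in SLBP (exact permutation p = 0.333), but with touching pieces merged the sign turned, to 3.75 nt.

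The mitochondrial share was smaller in the SLBP lists at 40 U than in those at 5 U, without a test that could pass. All 40 U libraries were replicates 1 and 2 and all 5 U libraries replicates 3 and 4. The RNase I amount therefore cannot be told apart from any other difference between these replicate sets. The share was 0.607% ± 0.012 at 40 U and 0.965% ± 0.215 at 5 U (SD, n = 2 each), a difference of −0.357 percentage points with no overlap (exact permutation p = 0.333). As a share of the nucleotides covered by peaks it was 0.473% and 0.553% at 40 U and 0.642% and 0.855% at 5 U. The number of mitochondrial peaks was the same at both amounts, 138 and 113, while the lists held 23034 and 18349 peaks at 40 U and 16974 and 10122 at 5 U. The median log2 value was −0.13 ± 0.26 at 40 U and −0.41 ± 0.05 at 5 U (SD, n = 2 each), a difference of 0.28 with no overlap (exact permutation p = 0.333). It was 0.094 without SLBP replicate 1, 0.47 without replicate 2, and 0.19 with peaks of at least 20 nt, where the groups overlapped (exact permutation p = 1).

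At single stretches, SLBP values at 40 U lay above those at 5 U at 20 of 51, below at 2 and overlapped at 29. Over all 1309 common stretches the shares were 35.2% above and 8.25% below. The median difference, 40 U minus 5 U, was 0.20 over the mitochondrial stretches and 0.37 over the others. The 2 stretches that lay lower at 40 U, named after their values were seen, were the ND6 stretch of the minus strand (0.15 and 0.27 at 40 U, 0.66 and 1.58 at 5 U) and the RNR2 stretch from 2247 to 2301 (−1.15 and −1.32, −0.51 and −0.57). Median peak widths were 23 and 29 nt at 40 U and 28 nt in both lists at 5 U, a difference of −2 nt with overlapping values (exact permutation p = 1). The share of mitochondrial peaks on the minus strand was 3.62% and 4.42% at 40 U and 2.90% and 4.42% at 5 U, a difference of 0.36 percentage points with overlap (exact permutation p = 1). With touching peaks merged it was 1.29 points and with peaks of at least 20 nt 2.02, both without overlap (exact permutation p = 0.333).

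Widths of mitochondrial peaks as a whole depended on how touching pieces were counted. Their median was lower than that of other peaks of the same list in 7 of 7 libraries, by a mean of −9.93 ± 4.90 nt (SD, n = 7; exact sign-flip permutation p = 0.0156, adjusted 0.0260). With touching pieces merged, mitochondrial sites were wider than other sites by a mean of 5.93 nt (adjusted exact permutation p = 0.0195). Minus-strand peaks did not differ in width from plus-strand peaks beyond the spread of the libraries (mean 5.00 ± 9.32 nt, SD, n = 7; exact permutation p = 0.203, adjusted 0.203), and merged minus-strand sites were narrower by −9.64 nt (adjusted exact permutation p = 0.0195).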

How the data were processed

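Peaks of eCLIP libraries from 293T cells were taken from the authors' deposited peak lists, 1 per library, for 7 of the 24 samples of the series; the inputs enter only through the authors' values, and the other samples are not analysed here. The submitters' processing notes name the build hg19 and, without versions, the tools SAMtools, Picard, GATK, STAR and cutadapt. For the peak caller, the scaling and the handling of reads with several matches the sources used here give nothing. Each deposited interval carries the authors' log2 value of precipitate over input and a −log10 p-value. In the deposited files the −log10 p had a ceiling of 400 and was 0 for every log2 under 0, so it was used as a limit and not to rank peaks. No header names the columns, so units were inferred from the numbers they hold.

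Peaks were placed by midpoint; positions count from 1. The members, gene windows and lists were chosen with earlier results of these data known. Gene names come from approximate windows, set from general knowledge and rounded to 100 nt, whose order was checked against RefSeq's GRCh38.p14 gene table; no coordinates were taken from it, and no hg19 annotation or sequence was used here. Within-library differences were tested by exact two-sided sign-flip permutation over the 7 libraries (smallest p 0.0156), with Benjamini-Hochberg adjustment over 5 of 6 planned differences; the sixth, for the control region, had under 3 peaks per list. Groups of 2 libraries were compared by exact two-sided permutation (smallest p 0.333). Sites are peaks of a strand merged where they touch. Common stretches are nucleotides covered in all 7 lists, joined across gaps under 50 nt, valued by the length-weighted mean log2. The text names, by rule, each list's highest peak per strand where it adds to a result, the 3 highest and 3 lowest common stretches per strand, and the stretch with the widest gap between RBFOX2 and SLBP. Over the 51 stretches, the replicate 1 minus replicate 2 differences of RBFOX2 and SLBP at 40 U correlated at r = −0.44. That value cannot decide whether the numbers pair the samples, and the main comparisons did not take them as pairs. The analysis used Python 3.11.15, NumPy 2.4.6, pandas 2.3.3 and SciPy 1.17.1, and the scripts were checked on simulated data. Alternatives were merging, other averages, a width minimum, other limits and leaving out each library.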

Additional observations from a re-analysis of the deposited data

How the results depend on the processing

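Merging touching peaks turned the width difference between mitochondrial and other peaks from −9.93 to 5.93 nt, the strand difference in width from 5.00 to −9.64 nt and the RBFOX2 minus SLBP difference in width from −6.75 to 3.75 nt, and made that between SLBP at 40 U and 5 U 0 nt. It took the rRNA window minus the rest past the threshold (−0.17, adjusted exact permutation p = 0.0469). These widths depend on how sites were cut into pieces. With peaks of at least 20 nt alone, the mitochondrial width difference was 0 nt, the rRNA difference 0.041, the width differences between groups 0.75 nt (RBFOX2 minus SLBP) and 0 nt (SLBP amounts), and the RBFOX2 minus SLBP strand gap −0.038; the strand gap between SLBP amounts could not be computed. The RBFOX2 minus SLBP strand gap was −0.17 with a length-weighted mean and −0.15 with an arithmetic mean; with the latter, the width difference of the SLBP amounts was 0.11 nt. Over stretches covered in all 7 lists, an added alternative, the mitochondrial difference in log2 was −0.17 (adjusted exact permutation p = 0.182). The cause of these changes was otherwise not tested.

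Leaving out any 1 library gave an adjusted exact permutation p of 0.0521 for the 3 differences that had passed, the least that 6 libraries allow here. Their values kept their signs: −1.76 to −1.55 for mitochondrial against other log2 values, 1.06 to 1.37 for the strands and −11.1 to −8.67 nt for width. Of the 10 comparisons between groups, those whose sign turned had leave-one-out ranges of −5.00 to 1.00 nt (width, SLBP 40 U minus 5 U), −0.401 to 1.13 percentage points (minus-strand share, the same groups), −0.64 to 1.23 (strand gap, RBFOX2 minus SLBP) and −1.30 to 0.57 (strand gap, SLBP 40 U minus 5 U). Signs held in the other 6, of which 4 moved by over 1.5 times: 0.094 to 0.47 (median log2) and −0.509 to −0.206 percentage points (share) for SLBP 40 U minus 5 U, and −9.75 to −3.75 nt (width) and −1.08 to −0.28 percentage points (minus-strand share) for RBFOX2 minus SLBP. Without SLBP replicate 1, in which the strand gap was 0.09, the strand gap difference of SLBP 40 U minus 5 U became 0.57.

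The 3 enriched peaks became 34 with a log2 limit of 1, which in SLBP replicate 2 and IgG was 8.85% and 7.01% of the mitochondrial peaks against 1.69% and 0.592% of the lists, and 0 with a −log10 p of at least 10 and a log2 of at least 4. A replicate block by number, for RBFOX2 minus SLBP at 40 U, gives the same differences by construction: −1.12 in median log2 and −0.357 percentage points in share. The exact sign-flip permutation p was 0.5 for both, the smallest that 2 pairs allow, so no call was possible. The same holds with the numbers crossed, a setting added because of the correlation of −0.44. Neither setting is therefore a check on these differences. The unknown depth limits every value of a single peak.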

Other observations

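Libraries of different antibodies could resemble each other along chrM more than replicates did. Over the 51 common stretches, log2 values of RBFOX2 replicate 1 correlated with those of IgG at Pearson's r = 0.81 and with those of RBFOX2 replicate 2 at r = 0.63. SLBP replicate 2 (40 U) correlated with SLBP replicate 3 (5 U) at r = 0.74 and with replicate 1, of its own group, at r = 0.43. SLBP replicate 4 correlated with replicate 1 at r = 0.57 and with replicate 3, of its own group, at r = 0.35. The lowest value was 0.02, between RBFOX2 replicate 1 and SLBP replicate 4. Over the 44 stretches in gene windows alone, without the tRNA positions, RBFOX2 replicate 1 still stood at 0.75 with IgG and 0.67 with RBFOX2 replicate 2. There SLBP replicates 1 and 2 stood at 0.59, and replicates 3 and 4 at 0.54, against 0.49 for replicates 2 and 3 and 0.34 for replicates 1 and 4. Stretches share their library, their input and their neighbours, so these are descriptions across positions and not tests.

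At 1 tRNA position the replicates of each antibody lay on opposite sides of input. RBFOX2 replicate 1, SLBP replicates 2 and 3 and IgG had values above input at the glycine tRNA position (0.53, 0.12, 0.64 and 1.83), and RBFOX2 replicate 2 and SLBP replicates 1 and 4 had values below it (−1.69, −1.31 and −2.07). At the stretch from 4421 to 4459, between ND1 and ND2, the same split was seen in part: RBFOX2 replicate 1 stood at 0.13, SLBP replicates 2 and 3 at 1.08 and 0.61 and IgG at 1.29, against −1.42 in RBFOX2 replicate 2 and −0.67 in SLBP replicate 4, while SLBP replicate 1 stood at 0.05. Not every gap showed this split: RBFOX2 replicate 2 stood at 0.70 and IgG at −0.21 at 15972 to 15988 on the minus strand, and RBFOX2 replicate 1 stood at −0.59 at 12171 to 12311. The pattern was noticed in the values and was not tested.

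Ceiling values of the −log10 p differed between lists. In RBFOX2, 0 mitochondrial peaks of either list had the value 400, against 122 and 105 peaks on other chromosomes. In SLBP 5, 7, 5 and 3 mitochondrial peaks of replicates 1 to 4 had it, against 157, 71, 190 and 156, and in IgG 10, against 8. All 25 plus-strand peaks among these lay in the rRNA window, where single sites are split into several peaks.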
